A study of Mus musculus with 15 samples.

Results

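The dorsal forebrain patterning transcription factors Pax6, Emx1, Emx2, Lhx2, Dmrta2, Dmrt3, Sp8, Six3 and Hopx were examined for allelic expression in mouse cortical organoids. These 9 genes were taken by name, as autosomal patterning factors of cortical progenitors, from the 44260 genes of the table, and all 9 were found there. RNA came from 3 libraries of day 12 organoids grown from SpretB6 lines, which carry a C57BL/6J (B6) genome copy and a Mus spretus (Spret) genome copy, so that every library gave 1 value per allele and gene. The libraries are titled C1 to C3 and are called libraries 1, 2 and 3. The day comes from the name of the deposited table. The labels name epiblast stem cells as the source and describe organoids derived from them, with no treatment given. The labels do not say whether the libraries came from separate clones or cultures, so the spread among them may be technical. The p-values rest on that spread, pooled in large part over genes. The series lists 12 induced pluripotent stem cell samples besides, which were not analysed here. Libraries of the reverse cross were not analysed here either, so effects of strain and of parental origin cannot be told apart.

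The early cerebral cortex is laid out by transcription factors that are expressed in gradients across its dividing progenitors. Pax6 is strongest toward the front and side of the pallium and Sp8 toward the front. Emx2 and the Dmrt factors are strongest toward the back and midline. Lhx2 sets cortical identity against that of the cortical hem, a signalling centre at the midline. In a hybrid cell both copies of such a gene share the same nucleus and the same set of trans-acting factors.

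None of the 7 patterning factors abundant enough to test passed the threshold for a difference between the alleles. Each had a mean of at least 10 over the 6 allele columns. The comparison was the difference of the alleles within a library, by limma with Benjamini-Hochberg adjustment over all tested genes and a threshold of 0.05. Over the same autosomal genes, 28.4% passed (4395 of 15456), with 7.78% higher from Spret and 20.7% higher from B6. At an unadjusted p under 0.05, 1 of the 7 passed, Pax6, against 39.7% of autosomal genes. The adjusted p of the members ran from 0.0875 to 0.978. Abundance moved with the share called, which was 18.4% at a mean per column from 10 to 50, 31.2% from 50 to 200 and 43.8% from 200 upward, bands that were chosen after the data had been seen. The log2 ratios of Spret to B6 had a median of -0.01 in the 7 genes and -0.13 in the autosomal genes tested. For 6 of the 7 genes the 95% interval of the allelic ratio lay within a 2-fold difference either way, and for 5 within 1.5-fold. For none of the 9 genes were the 3 B6 values separate from the 3 Spret values, as they were for 23.8% of autosomal genes.

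**Figure D1:**
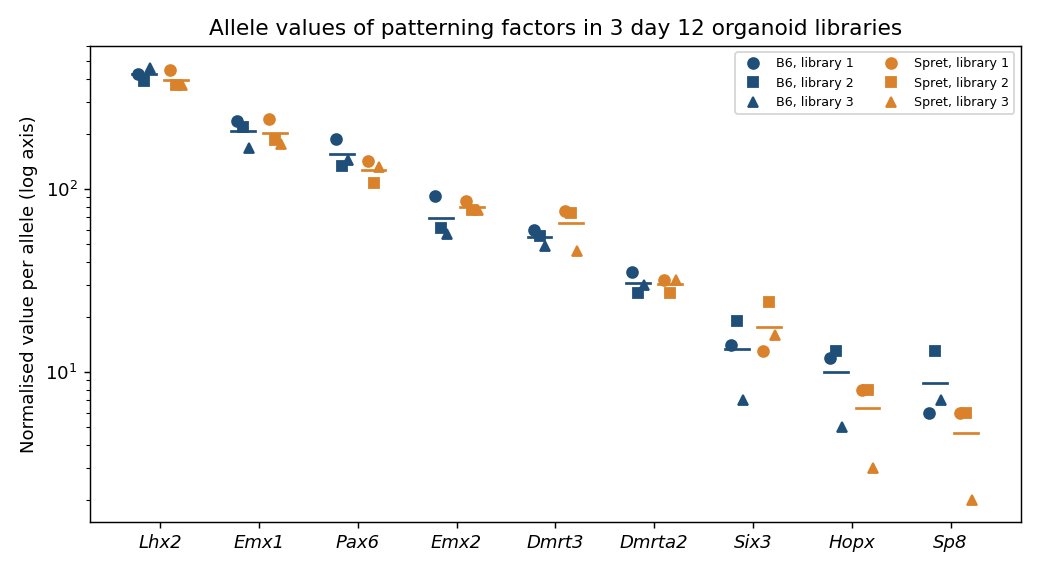
Normalised value of each allele (vertical log axis) for the 9 patterning factors, with 1 symbol per library, blue for B6, orange for Spret and a line at the mean of 3 libraries. The B6 and Spret symbols overlap for every gene, from Lhx2 with means of 423 and 394 to Sp8 with 8.67 and 4.67.

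Values are allele-specific read numbers normalised by the authors and rounded to whole numbers. Lhx2, a LIM homeodomain factor on chromosome 2 (38339281 to 38369733, mm10), had the highest values of the set. It read 423, 387 and 460 from B6 and 446, 368 and 369 from Spret in libraries 1, 2 and 3. Spret was above B6 in library 1 and below it in libraries 2 and 3, and the ranges overlapped. The means were 423 ± 36.5 and 394 ± 44.7 (SD, n = 3), a log2 ratio of -0.10 (SE 0.08, adjusted p = 0.366 by limma). The interval of the Spret to B6 ratio ran from 0.823 to 1.05, the narrowest of the set. The gap was widest in library 3, where about 685 B6 and 549 Spret reads lay behind the values. Without that library the log2 ratio was 0.00.

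The homeodomain factor Emx1, which marks the dorsal pallium and its excitatory lineage, lies on chromosome 6 (85187438 to 85204462). It read 236, 219 and 167 from B6 and 242, 186 and 177 from Spret. Spret was the higher allele in libraries 1 and 3 and the lower in library 2. With means of 207 ± 35.9 and 202 ± 35.2 (SD, n = 3), the log2 ratio was -0.04 (SE 0.10, adjusted p = 0.812 by limma) and the interval of the ratio ran from 0.838 to 1.13. The spread between libraries was larger than the gap between alleles.

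Pax6, a paired-domain factor that drives neurogenesis in radial glia, lies on chromosome 2 (105668900 to 105697364). It read 187, 134 and 143 from B6 and 142, 108 and 131 from Spret. B6 was higher in 3 of 3 libraries. The ranges overlapped, since the Spret value of library 1 exceeded the B6 value of library 2, a comparison across libraries that the paired fit does not make. Means were 155 ± 28.4 and 127 ± 17.3 (SD, n = 3), and Spret supplied 43.2%, 44.6% and 47.8% of the summed value. The log2 ratio was -0.28 ± 0.12 (SE), with a limma unadjusted p = 0.0323 and an adjusted p = 0.0875. Its interval ran from 0.695 to 0.982 and excluded equal alleles, but the gene did not pass adjustment over all genes. A lean to B6 in 3 of 3 libraries was found in 36.8% of autosomal genes. Relative to the general lean toward B6, with each library's ratios centred on the median autosomal gene, the log2 ratio of Pax6 was -0.15 (limma adjusted p = 0.359).

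The promoter windows of Pax6, Emx2 and Dmrta2 are shown because annotated opposite-strand transcripts named after these genes begin beside them. Among these pairs annotated exons overlap only for Emx2 and Emx2os, where unstranded reads could belong to either gene. Six3 and Hopx also share exon bases with opposite-strand genes, but their windows are not shown. Each window is RefSeq sequence of GRCm38.p6 on the plus strand, from 250 bases before to 50 after an annotated start. The letters are those of the B6 reference, and those of Spret were not used here. Capitals mark bases that also lie inside the opposite-strand gene in GENCODE M21.
Pax6 start 1, chr2:105668646-105668945: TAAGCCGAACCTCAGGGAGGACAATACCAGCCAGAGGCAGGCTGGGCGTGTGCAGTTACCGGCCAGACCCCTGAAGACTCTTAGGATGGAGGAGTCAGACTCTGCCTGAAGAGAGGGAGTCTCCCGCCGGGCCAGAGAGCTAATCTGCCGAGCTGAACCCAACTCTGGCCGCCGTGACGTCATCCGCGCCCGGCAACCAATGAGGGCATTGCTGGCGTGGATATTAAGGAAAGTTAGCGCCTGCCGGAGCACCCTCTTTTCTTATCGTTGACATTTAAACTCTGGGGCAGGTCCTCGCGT
Pax6 start 2, chr2:105682213-105682512: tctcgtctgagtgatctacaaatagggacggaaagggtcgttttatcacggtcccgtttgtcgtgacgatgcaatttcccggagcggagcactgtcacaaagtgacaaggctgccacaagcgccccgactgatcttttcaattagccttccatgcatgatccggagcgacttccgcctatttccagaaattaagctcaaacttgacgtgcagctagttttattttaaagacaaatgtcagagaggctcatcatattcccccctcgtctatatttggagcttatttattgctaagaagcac
Emx2, chr19:59458440-59458739: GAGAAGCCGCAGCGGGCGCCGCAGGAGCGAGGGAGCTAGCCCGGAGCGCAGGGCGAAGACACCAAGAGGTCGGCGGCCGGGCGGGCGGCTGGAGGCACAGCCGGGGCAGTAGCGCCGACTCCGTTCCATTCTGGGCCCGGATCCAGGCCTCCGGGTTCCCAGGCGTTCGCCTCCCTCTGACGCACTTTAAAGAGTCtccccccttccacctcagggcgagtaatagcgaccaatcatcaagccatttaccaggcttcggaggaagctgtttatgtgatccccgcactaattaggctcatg
Dmrta2, chr4:109977775-109978074: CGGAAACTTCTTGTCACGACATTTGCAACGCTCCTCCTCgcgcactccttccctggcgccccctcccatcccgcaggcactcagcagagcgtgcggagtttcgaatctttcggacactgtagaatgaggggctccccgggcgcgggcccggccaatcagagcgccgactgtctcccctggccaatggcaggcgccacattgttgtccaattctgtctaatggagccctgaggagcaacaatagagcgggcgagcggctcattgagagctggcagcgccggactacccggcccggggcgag
The first Pax6 window lies entirely inside Pax6os1, and the second lies outside it. In the Emx2 window 196 of 300 bases lie inside Emx2os, whose start is separated from the RefSeq start of Emx2 by 54 bases. In the Dmrta2 window 39 of 300 bases lie inside Dmrta2os. The windows of the 9 genes, 14 in all, were searched for 3 short motifs. The GC box GGGCGG, a binding site of Sp factors, stood in 4 of 14 windows on either strand, against 35.7% of 32851 mouse promoter windows, with 4 matches each in the first Lhx2 window and in Emx1, 2 in Emx2 and 1 in a window of Sp8. The homeodomain core TAATTA, which reads the same on both strands, stood in 2 windows, those of Emx2 and Sp8, against 5.29% of promoters. TATAAA stood in 1 window, of Sp8, against 13.6% of promoters. These matches are descriptions of the sequence and not evidence of binding. CpG dinucleotides numbered from 2 to 37 per window, with a median of 19.5 against 7 over all promoters, and were most frequent in Emx1 and Lhx2.

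Emx2, the paralogue of Emx1 with a gradient toward the caudal and medial cortex, lies on chromosome 19 (59458372 to 59465357). Its values were 91, 61 and 57 from B6 and 86, 77 and 77 from Spret. B6 was slightly higher in library 1, and Spret was higher in libraries 2 and 3. Means were 69.7 ± 18.6 and 80.0 ± 5.20 (SD, n = 3), a log2 ratio of 0.23 (SE 0.17, adjusted p = 0.329 by limma), with an interval of the ratio from 0.914 to 1.496. Emx1 and Emx2 did not pass the test in either direction, and their intervals overlapped. Normalised B6 values followed the same order over libraries as the summed value, with library 1 highest, whereas Spret values of Emx2 differed little between libraries.

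Emx2os, the opposite-strand transcript of Emx2, had the opposite lean. It read 31, 37 and 21 from B6 and 22, 23 and 13 from Spret, lower from Spret in 3 of 3 libraries. The log2 ratio was -0.60 (SE 0.27, adjusted p = 0.11 by limma), not past the threshold. Emx2 exceeded Emx2os in log2 ratio by 0.40, 0.99 and 1.08 in libraries 1, 2 and 3, a mean of 0.82 ± 0.37 (SD, n = 3). An exact two-sided sign-flip permutation test gave p = 0.25, the smallest that 3 libraries allow. The annotated genes overlap by 264 bases, exons included, and the sources used here do not state whether counting used strand. Reads in the overlap therefore cannot be assigned to either gene, and values of both are uncertain to that extent.

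**Figure D2:**
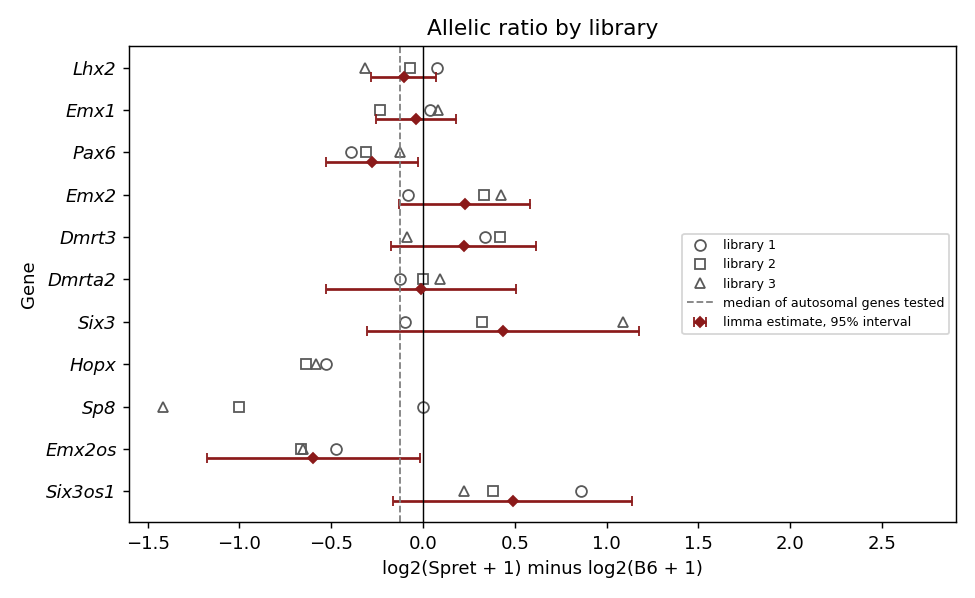
Allelic log2 ratio (horizontal axis, Spret over B6) of the 9 patterning factors and 2 opposite-strand transcripts, with open symbols for libraries 1 to 3, a red diamond and bar for the limma estimate and its 95% interval where the gene was tested, and a dashed line at the autosomal median of -0.13. The intervals of Lhx2 and Emx1 are narrow and cross 0, that of Pax6 ends just below 0 at -0.03, and that of Six3 reaches 1.18.

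Dmrt3 and Dmrta2 are doublesex-related zinc finger factors that act together in the medial pallium and help to set dorsal against ventral fate. Dmrt3 on chromosome 19 (25610301 to 25623921) read 60, 55 and 49 from B6 and 76, 74 and 46 from Spret. Spret was higher in libraries 1 and 2, and B6 was slightly higher in library 3, the library with the most reads. The log2 ratio was 0.22 (SE 0.18, adjusted p = 0.391 by limma), with an interval of the ratio from 0.888 to 1.53. Dmrta2 on chromosome 4 (109978053 to 109983687) read 35, 27 and 30 from B6 and 32, 27 and 32 from Spret, so the alleles were equal in library 2 and leaned to opposite sides in the others. Means were 30.7 ± 4.04 and 30.3 ± 2.89 (SD, n = 3), a log2 ratio of -0.01 (SE 0.24, adjusted p = 0.978 by limma). At this level the interval still ran from 0.693 to 1.42. Dmrta2os read at most 9 in any allele column and was not tested.

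The 3 least abundant genes gave little information on alleles. Six3, a homeodomain factor of the anterior neural plate and eye field that represses Wnt signalling, lies on chromosome 17 (85613608 to 85629302). It read 14, 19 and 7 from B6 and 13, 24 and 16 from Spret. The gap was widest in library 3, with about 10.4 B6 and 23.8 Spret reads behind the values, and library 1 leaned slightly to B6. The log2 ratio of 0.44 (SE 0.35, adjusted p = 0.368 by limma) was the largest of the tested set and had the widest interval, from 0.811 to 2.26. Without library 3 it was 0.11.

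Six3os1, whose span overlaps that of Six3 by 4791 bases on the other strand with exons included, read 15, 22 and 11 from B6 and 28, 29 and 13 from Spret. Spret was higher in 3 of 3 libraries, with a log2 ratio of 0.49 (SE 0.30, adjusted p = 0.247 by limma). In library 1 the transcript leaned further to Spret than Six3 did, and in library 3 the reverse held. The log2 ratio of Six3 minus that of Six3os1 had a mean of -0.05 ± 0.91 (SD, n = 3; exact two-sided sign-flip permutation p = 0.75). As for Emx2, reads from the shared exons could count toward either gene.

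Sp8 and Hopx had means of 6.67 and 8.17 over the 6 columns and were not tested. Sp8, a zinc finger factor of the rostral telencephalon on chromosome 12 (118846329 to 118852576), read 6, 13 and 7 from B6 and 6, 6 and 2 from Spret. The last of these values corresponds to about 2.98 reads. Hopx, a homeodomain protein that does not bind DNA itself and is found in progenitors of the medial pallium, lies on chromosome 5 (77086988 to 77115121). It read 12, 13 and 5 from B6 and 8, 8 and 3 from Spret, lower from Spret in 3 of 3 libraries. Behind the values of Hopx stood from about 4.47 to 10.4 reads per allele and library, and Hopxos, which overlaps it on the other strand, read from 3 to 12.

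Markers of cortical progenitors were present in every library, as the cortical label of the series implies. The 8 cortical progenitor markers summed to between 4882 and 5828 per library over both alleles. The 8 ventral telencephalon markers summed to between 254 and 310, the 9 eye and hypothalamus markers to between 119 and 171, and the 6 midbrain and hindbrain markers to between 130 and 181. The 4 pluripotency markers summed to between 17 and 74, with Zfp42 at 0 in libraries 1 and 2. The 6 markers of the cortical hem and choroid plexus summed to 3064 in library 1 and to 762 and 504 in libraries 2 and 3. Ttr, the transthyretin gene of the choroid plexus, made up 2555, 534 and 323 of these sums, and the other 5 markers 509, 228 and 181. Of 7 tested cortical progenitor markers, limma called 4, against 28.4% of autosomal genes. Sox2 (log2 ratio 0.58), Fabp7 (0.25) and Hes5 (1.59) were higher from Spret and the glutamate transporter gene Slc1a3 (-0.58) from B6. Of the 5 intermediate progenitor and neuron markers, all tested, limma called 4, against 28.4% of autosomal genes. At a mean per column from 200 upward, a level that markers of both lists reached, the autosomal share was 43.8%. Neurog2 (log2 ratio -0.56), Eomes (-0.27) and Neurod6 (-0.13) were higher from B6 and Map2 (0.10) from Spret. Among markers of the remaining lists, limma called Ttr (-1.68) and Pou5f1 (-4.42) higher from B6. It did not call Gad1 (0.15), Mitf (-0.61) or Egr2 (-0.07).

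Summed over both alleles, the patterning factors also varied between libraries. Totals over all genes differed too, at 2701847, 2413876 and 3027078 from B6 in libraries 1, 2 and 3. From Spret they were 2337998, 2088788 and 2639912, so library 1 stood above library 2 in general, and library 3 was highest. The part of this in the levels of single genes was not tested. In bulk samples, fewer cells of a type and less RNA per cell cannot be told apart. Lhx2 summed to 869, 755 and 829 and varied least relative to its mean, 818 ± 57.8 (SD, n = 3). Emx1 at 478, 405 and 344, Pax6 at 329, 242 and 274, Emx2 at 177, 138 and 134, Dmrt3 at 136, 129 and 95 and Dmrta2 at 67, 54 and 62 were all highest in library 1. That library also had the highest level of hem and choroid plexus markers, with or without Ttr, and the part of this in the levels of the patterning factors was not tested. Six3 at 27, 43 and 23, Sp8 at 12, 19 and 9 and Hopx at 20, 21 and 8 were highest in library 2. There, 13989 genes with a mean sum from 2 to 10 averaged 7.09, against 4.07 and 3.13 in libraries 1 and 3, so genes of low value were higher in library 2 in general. The part of this shift in the levels of the 3 least abundant genes was not tested. With 1 library per title, differences between single libraries have no test.

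**Figure D3:**
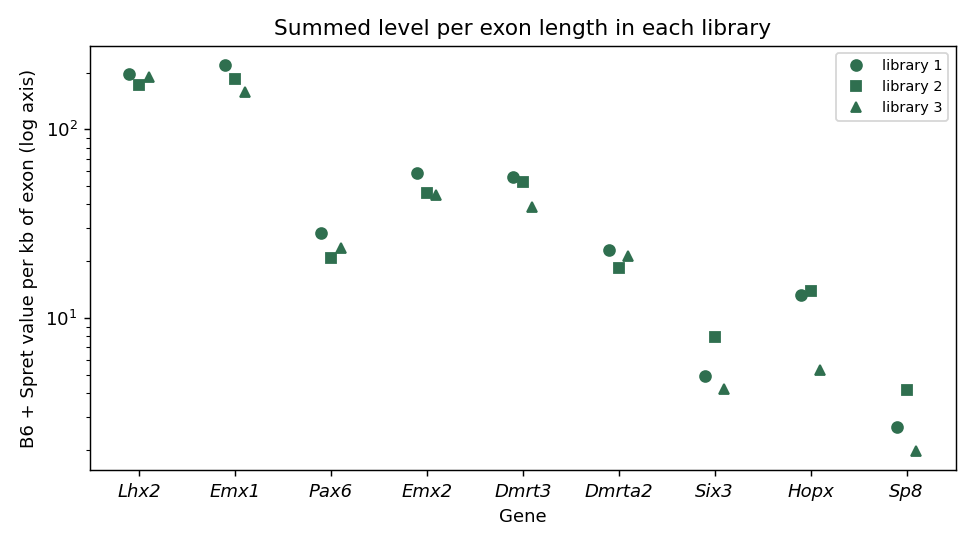
Summed B6 and Spret value per kb of annotated exon (vertical log axis) for the 9 patterning factors, with 1 symbol per library. Emx1 and Lhx2 stand together at the top with means of 187 and 186, and Sp8 is lowest at 2.93.

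Levels between genes were compared per kb of exon, from the union of exons in GENCODE M21. Reads without a base that differs between the strains do not enter the table, and the density of such bases was not analysed here. On this scale Emx1 at 187 ± 30.7 and Lhx2 at 186 ± 13.2 (SD, n = 3) led, with overlapping ranges over libraries. Emx2 at 49.9 ± 7.91 and Dmrt3 at 49.1 ± 8.97 followed, again overlapping. Pax6 at 24.1 ± 3.76 and Dmrta2 at 20.9 ± 2.24 came next and overlapped. The long annotated exon union of Pax6, 11.694 kb, lowered its place, since its value before division exceeded those of Emx2 and Dmrt3. Hopx at 10.8 ± 4.77 and Six3 at 5.69 ± 1.94 overlapped, and Sp8 at 2.93 ± 1.13 was separate below Six3.

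Genes of the same network showed calls in both directions. Of 27 forebrain patterning partners, 24 were tested, all autosomal, and 9 were called, 4 higher from Spret and 5 higher from B6, with a median log2 ratio of -0.15, against 28.4% called over autosomal genes. Those higher from Spret were Id4, an inhibitor of bHLH factors, at 0.35 ± 0.08 (SE), the progenitor factor Sox2 at 0.58 ± 0.16, Fezf2, a determinant of deep-layer projection neurons, at 0.48 ± 0.15, and Lhx5 at 0.78 ± 0.27. Those higher from B6 were the nuclear receptors Nr2f1, at -0.34 ± 0.07, and Nr2f2, at -0.88 ± 0.11, which shape caudal cortical identity, the Wnt effector Lef1 at -0.43 ± 0.11, Lhx9 at -0.55 ± 0.14 and Dmrta1, a relative of Dmrta2, at -0.90 ± 0.31. Their limma adjusted p-values were at most 0.0424. The sign held in 3 of 3 libraries for each, against 54% of autosomal genes, but it was read from the same values as the calls. All but Id4 and Nr2f1 were named after their values were seen. Dmrta1 read 30.7 ± 4.62 from B6 and 16.3 ± 4.73 from Spret (SD, n = 3), close in level to Dmrta2 before division by length. The count of 9 fell to 2 without library 1 and to 4 without library 3. It fell to 1 without limma's intensity trend and to 0 when low values were not filtered. Calls over all autosomal genes fell as well, from 4395 to 2220, 2846, 1775 and 722 in these settings. Whether any of these ratios differs from those of the patterning factors was not tested.

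Among families of the patterning factors, 15 of 32 relatives were tested and 1 was called, against 28.4% of autosomal genes. Six4, a homeodomain factor related to Six3, read 54.7 ± 16.5 from B6 and 29.7 ± 3.21 from Spret (SD, n = 3), with a log2 ratio of -0.82 (SE 0.22, adjusted p = 0.0122 by limma). Without library 1 its adjusted p was 0.147. The other 14 tested relatives were not called, among them the relatives of Sp8, named after their values were seen, with log2 ratios of -0.06 for Sp1, 0.37 for Sp2, -0.05 for Sp3, 0.14 for Sp4 and -0.17 for Sp6. The median over the 15 was -0.05.

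Targets and cofactors of Pax6 and Lhx2 formed the list with the most calls in number, though not in share. Of 24 genes, 23 were tested, and the X-linked Efnb1 and Tenm1 were set aside because the X was read almost wholly from B6 in these genes. Of the 21 on autosomes, 13 passed, 3 higher from Spret and 10 higher from B6, with a median log2 ratio of -0.44, against 28.4% of autosomal genes called, 7.78% higher from Spret and 20.7% higher from B6. Among autosomal genes with a mean per column from 200 upward the share called was 43.8%. Many genes of the list reached that level, among them Eomes, Tle1 and Robo2, and the part of abundance in the count was not tested. The proneural factor Neurog2, a direct target of Pax6, read 241 ± 31.2 from B6 and 165 ± 35.7 from Spret (SD, n = 3), with a log2 ratio of -0.56 (SE 0.11, adjusted p = 0.0011 by limma). Eomes, the factor of intermediate progenitors, had -0.27 ± 0.06, and the corepressor Tle1 had -0.60 ± 0.07. The LIM-only proteins Lmo3 and Lmo4, which compete with LIM homeodomain factors for their cofactor, had -1.26 ± 0.11 and -0.57 ± 0.10. Ssbp2 and Ssbp3, which bind that cofactor, had -0.51 ± 0.08 and -0.30 ± 0.07, whereas Ldb1, the cofactor itself, had 0.06 ± 0.08 and was not called. Cdh4 and Ccnd1 were also higher from B6, at -0.77 ± 0.12 and -0.64 ± 0.19. Toward Spret stood Fabp7, a lipid-binding protein of radial glia, at 0.25 ± 0.06, Robo2 at 0.39 ± 0.12 and the Notch effector Hes5 at 1.59 ± 0.45, the last on means of 5.67 and 15.3. Limma adjusted p-values of the 13 were at most 0.0222. The sign, read from the same values as the calls, held in 3 of 3 libraries except for Robo2, with 2 of 3. It held in 3 of 3 for 54% of autosomal genes. Apart from Eomes and Fabp7 these genes were named after their values were seen, and all such lists were drawn up with earlier results of these data known. The count of 13 fell to 3 when low values were not filtered and to 3 without the intensity trend. Calls over all autosomal genes fell from 4395 to 722 and 1775 in these settings.

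**Figure D4:**
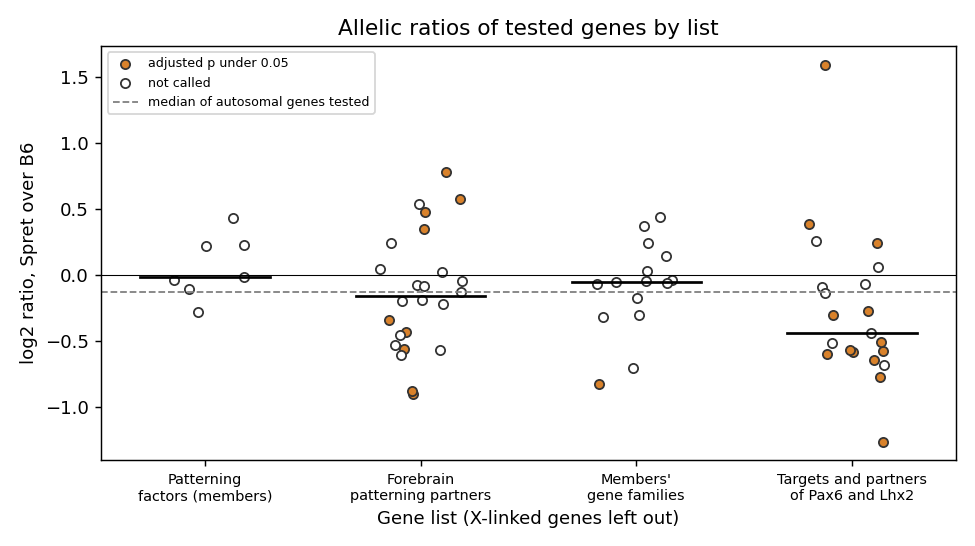
Log2 ratio of Spret to B6 (vertical axis) for tested autosomal genes of the patterning factors and of 3 related lists, with filled symbols for limma adjusted p under 0.05, a bar at each list's median and a dashed line at the autosomal median of -0.13. All 7 patterning factors are open symbols between -0.28 and 0.44. In the other lists 9 of 24, 1 of 15 and 13 of 21 symbols are filled, against 28.4% called over all tested autosomal genes. Differences between the lists were not tested.

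Genes next to the patterning factors on the chromosome were also read. Of 29 overlapping, neighbouring or opposite-strand genes found in the table, 8 were tested and 2 were called, against 28.4% of autosomal genes. Dennd1a, below Lhx2 at a distance of 51891 bases, read 202, 198 and 324 from B6 and 198, 145 and 219 from Spret, with a log2 ratio of -0.35 (SE 0.11, adjusted p = 0.0295 by limma). Elavl4, an RNA-binding protein of neurons that lies 220035 bases above Dmrta2, had -0.27 ± 0.10 (limma adjusted p = 0.0451). Both were lower from Spret in 3 of 3 libraries, as were 36.8% of autosomal genes. With each library's ratios centred on its autosomal median neither was called, with limma adjusted p of 0.151 and 0.281. Neither Elp4, the neighbour of Pax6, at -0.16 ± 0.22, nor Sfxn5, the neighbour of Emx1, at -0.23 ± 0.13, was called.

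Genes with the most similar values over the 6 allele columns were sought for Lhx2, the most abundant member, and Six3, the tested member with the largest ratio. Likeness was the Euclidean distance of log2 values centred per gene, over 15455 autosomal genes and 6 columns that come from 3 libraries. For Lhx2 the nearest were Elf2 at a distance of 0.11, Klhl32 at 0.11 and Mrps2 at 0.12. For Six3 they were Vmn1r55 at 0.35, Greb1 at 0.36 and Lipg at 0.38. All 3 neighbours of Six3 had their lowest B6 value in library 3 and their highest values in library 2, as Six3 did. They were chosen by these same values, so this shared order follows from the choice.

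Balance toward either strain depends on the scale. Centring each library's ratios on its autosomal median removed about -0.13, -0.13 and -0.12 in libraries 1, 2 and 3. The number of tested patterning factors with a ratio above 0 then went from 3 to 6 of 7, all but Pax6. Among autosomal genes 5684 of 15456 were above 0 before centring, and centring by design places about as many above 0 as below. Emx1, Lhx2 and Dmrta2 crossed 0 through this step. None of the 7 was then called, with adjusted p from limma between 0.132 and 0.894. Of autosomal genes 26.8% were called on this scale, 13.3% higher from Spret and 13.5% higher from B6. In the forebrain patterning partners the split became 6 higher from Spret and 3 higher from B6, and in the targets and cofactors it became 3 and 7. Lef1, Dmrta1, Eomes, Ssbp3 and Ccnd1 then missed the threshold, with limma adjusted p of 0.0585, 0.072, 0.0945, 0.0835 and 0.059. The ratio of the neuronal marker Neurod6 was then -0.003 (limma adjusted p = 0.969). Sp4 passed on this scale, toward Spret (limma adjusted p = 0.0467).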

How the data were processed

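Libraries were ribosome-depleted total RNA, sequenced toward 80M reads each per the labels' protocols. The authors deposited a score, by its name allele-specific reads normalised and rounded to whole numbers. The submitters' processing notes name mm10. Aligner, allele assignment, counter and strand use are not stated in the sources used here. Gaps and doublings among whole numbers fitted scale factors of 1.16, 1.28 and 0.672 in libraries 1, 2 and 3, alike in both alleles, and approximate reads are values divided by them (1.89M to 4.51M B6 and 1.64M to 3.93M Spret reads per library). A factor below 1 merges reads, so no count test was run.

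Log2(value + 1) of 15985 genes with a mean of at least 10 was fitted by limma 3.58.1 (R 4.3.3) with terms for library and allele and with the intensity trend, after a check on simulated data. Alleles are paired by their shared RNA: deviations of the 2 alleles of a library correlated at 0.205, 0.435 and 0.550 across genes. Limma draws the spread of each gene toward the trend over all genes, with 2 residual and a median of 12.3 prior degrees of freedom. Standard errors, intervals and p-values therefore reflect mostly this pooled spread and less the 3 libraries of the gene itself. Intervals are at 95%, unadjusted. The pseudocount understates differences of low genes. Positions and exon lengths are from GENCODE M21 (GRCm38).

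Members, lists and tests were chosen with earlier results of these data known. Named are the members, their overlapping, opposite-strand and nearest genes, from each list the called gene with the highest sum in each direction (or, with none called, the highest), and the 3 genes nearest in value to each of 2 members. Further genes of the lists were named after their values were seen. Some genes of the lists are counted but not reported here by name.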

Additional observations from a re-analysis of the deposited data

How the results depend on the processing

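No patterning factor was called under any of the 10 alternatives, where the lowest limma adjusted p was 0.0818. With centred ratios the log2 ratios of Emx1, Lhx2 and Dmrta2 changed sign, to 0.085, 0.019 and 0.11. The range over fits without 1 library was -0.099 to 0.060 for Emx1, -0.19 to 0.0019 for Lhx2 and -0.063 to 0.045 for Dmrta2. With a pseudocount of 5 the ratio of Hopx was -0.39 against -0.58 in the main setting. Emx2os was called without the trend (limma adjusted p = 0.0429). Autosomal calls, 4395 in the main setting, were 722 with no filter, 1775 without the trend and 2220 to 3547 without 1 library. Without the paired term (no replicate block) they were 1087, and the calls among partners, families and targets were 0, 0 and 1. The calls among partners were 0 with no filter, 1 without the trend and 2 to 6 without 1 library. Those among families were 0 with no filter, at a mean of at least 50 and without the trend, 2 with centred ratios and 0 to 2 without 1 library. Those among targets were 3 with no filter and 3 without the trend. The causes were not tested. Of 130 comparisons of main results with alternatives, 103 counted as unchanged. This required the same direction and side of the threshold, or a count within 1.5 times. For the untested Sp8 and Hopx it required a ratio within the SD over libraries of the main one. Depth limits Sp8, Hopx and Six3 most, at about 2.98 to 23.8 reads per allele and library.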
